A study of Rattus norvegicus with 372 samples.

Results

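The circadian clock genes of primary rat hepatocytes were followed through 28 chemical treatments of 24 h by TempO-Seq, a targeted assay in which pairs of detector oligos are ligated on their transcript and counted by sequencing. The 10 genes were taken by name, Arntl, Clock, Per1, Per2, Per3, Cry1, Dbp, Tef, Nr1d1 and Nr1d2, and counts of probes of the same gene were added. Of these 10 genes, 9 had a probe among the 20946 genes of the whole transcriptome (WT) assay and 5 among the 2604 genes of the surrogate (ST) assay, and Per1 was not analysed here. Of the 9 genes, 8 averaged 10 counts or more per WT well and were tested, and Cry1, which did not reach that level, was fitted only without this filter.

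The hepatocytes came from male Wistar rats and were kept in collagen sandwich in a medium with insulin, EGF and 100 nM dexamethasone, a synthetic glucocorticoid, which all groups shared. 14 chemicals were given at 2 concentrations each. Treated wells and vehicle wells held 0.5% DMSO, and no DMSO is stated for culture medium wells. A batch stands for 1 rat. Its 3 wells of each treatment are technical replicates, so that p-values within a batch measure the spread between wells of 1 culture. The fit of both batches and the interaction of batch and treatment also take wells as replicates, so their p-values do not measure the spread between rats. Vehicle wells numbered 3 in batch 1 and 6 in batch 2. All wells were harvested at 1 time, so that a shift of the clock's phase and a change of its level cannot be told apart, and neither can fewer cells and less RNA per cell.

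Total counts per WT well ranged from 2709504 to 8948654 in batch 1 and from 2289425 to 8975207 in batch 2, and a level is given as CPM, the counts of a gene scaled by the total of its well. Of the hepatocyte markers, Alb stood at 10818 to 12165 CPM in vehicle wells of batch 1 and at 13107 to 14790 CPM in those of batch 2. Of 3 stellate cell markers with a probe, Col1a1 did not exceed 0.673 CPM in any treated well, whereas Col1a2 stood at 30.7 to 39.7 CPM in vehicle wells of batch 1 and at 13.3 to 21.6 CPM in those of batch 2. The 3 biliary cell markers summed to 33.1 to 39.1 CPM and 39.0 to 49.0 CPM there, mostly Epcam, with the defining marker Krt19 at no more than 0.546 CPM. The endothelial cell marker Stab2 did not exceed 0.955 CPM in any treated well. Kupffer cell markers were detected, with a summed level of 30.9 to 39.5 CPM over 4 genes in vehicle wells of batch 1 and of 19.1 to 28.8 CPM in batch 2.

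The mammalian clock is a feedback loop of transcription. ARNTL (also called BMAL1) and CLOCK form a pair that binds E-box sequences and activates Per and Cry genes, whose proteins return to inhibit that pair. The same pair drives Nr1d1 and Nr1d2, which encode the nuclear receptors REV-ERBα and REV-ERBβ, and these repress Arntl. Dbp and Tef encode PAR bZIP factors, which carry the rhythm to D-box genes of the liver, among them genes of bile acid, lipid and drug metabolism. Glucocorticoids are a resetting signal of peripheral clocks, and nuclear receptors such as PPARα are linked with several clock genes.

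Promoter stretches of the genes on which the results turn are shown, since these motifs are the letters by which the loop is described. They are the 250 bases before the annotated start, taken from RefSeq on the rat build GRCr8, which held 9 of the 10 genes (all but Cry1) in 11 windows. The counts themselves rest on the build rn6, and no position was carried from one to the other. Capitals mark matches on either strand to CACGTG (E-box), CACGTT (a variant E-box), TTANGTAA (D-box) or AGGTCA (a nuclear receptor half-site, read by REV-ERB proteins), and in these windows no match overlapped another.

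Nr1d1, chr10:84229455-84229704, minus strand: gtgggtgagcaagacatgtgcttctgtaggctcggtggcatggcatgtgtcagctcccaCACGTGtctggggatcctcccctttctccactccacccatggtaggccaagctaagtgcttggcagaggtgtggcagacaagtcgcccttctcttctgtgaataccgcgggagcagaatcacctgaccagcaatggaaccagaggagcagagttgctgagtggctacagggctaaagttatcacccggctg
Arntl, chr1:176766078-176766327, plus strand: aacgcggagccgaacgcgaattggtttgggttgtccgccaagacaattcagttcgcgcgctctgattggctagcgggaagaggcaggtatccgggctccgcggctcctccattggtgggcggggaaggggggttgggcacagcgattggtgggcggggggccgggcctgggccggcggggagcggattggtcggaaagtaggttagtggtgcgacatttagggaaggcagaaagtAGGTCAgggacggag
Per2, chr9:99496994-99497243, minus strand: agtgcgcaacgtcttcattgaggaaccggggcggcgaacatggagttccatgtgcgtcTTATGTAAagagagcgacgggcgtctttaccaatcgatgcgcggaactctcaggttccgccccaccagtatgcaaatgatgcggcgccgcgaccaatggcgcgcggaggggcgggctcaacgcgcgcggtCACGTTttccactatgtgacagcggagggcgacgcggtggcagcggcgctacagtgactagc

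Nr1d1 carried CACGTG 191 bases before this start, and the window of its other annotated start carried CACGTT on the opposite strand. Arntl carried AGGTCA 15 bases before its start, and Nr1d2 carried it 187 bases before. Per2 carried both TTANGTAA, 192 bases before its start, and CACGTT, 62 bases before it, and Tef carried CACGTG 198 bases before its own. The windows of Dbp, Per1, Per3 and Clock held none of these letters. Among all 33469 promoter windows of that length, CACGTG stood in 5.59%, CACGTT in 4.07%, TTANGTAA in 2.04% and AGGTCA in 14.1%, so a match describes the sequence and shows no binding.

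The resting levels of several clock genes differed between the rats. In vehicle wells Nr1d1 stood at 160, 162 and 173 CPM in batch 1 and at 33.8 to 48.5 CPM with a median of 42.4 CPM in batch 2, a median 3.83 times as high in batch 1. Nr1d2 followed with 24.9, 26.4 and 30.5 CPM in batch 1 and 9.50 to 13.5 CPM in batch 2. Arntl, the activator that REV-ERB proteins repress, was the other way round, with 39.8, 43.7 and 49.3 CPM in batch 1 and 54.7 to 61.2 CPM in batch 2. Per2 was also lower in batch 1, with 43.3, 47.0 and 51.3 CPM, than in batch 2, with 62.5 to 73.4 CPM. The vehicle wells of the batches did not overlap for these 4 genes or for Per3, while those of Clock, Dbp, Tef and Cry1 overlapped. With 1 rat per batch, animal, isolation, library preparation and sequencing cannot be told apart here.

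Each treatment was compared with vehicle in a model with a term for batch by the quasi-likelihood test of edgeR, and a gene is called at a Benjamini-Hochberg adjusted p under 0.05 over all 10191 genes tested. L2FC is the log2 fold change against vehicle. The SE given with it is the absolute L2FC over the square root of the F statistic of that test, so it is approximate. Of the 224 pairs of 8 clock genes and 28 treatments, 69 were called, or 30.8%, beside 30.2% of the pairs of all genes. The direction was uneven, with 55 pairs higher and 14 lower, or 24.6% and 6.25% of the pairs, beside 15.2% and 15% over all genes. In batch 1 alone 48 of the 224 pairs were higher and 28 lower, both above the shares over all genes, 10.2% and 9.86%. In batch 2 alone 68 were higher, above the share of 14.4%, and 15 lower, below the share of 13.5%. The low share of lower calls was thus not seen in batch 1 alone. When each batch was fitted alone, 42 of the 69 pairs were called in the same direction in both, or 18.8% of all pairs beside 15.8% over all genes. With the wells of a treatment and batch added, which leaves 1 value per rat, 33 pairs were called, or 14.7% beside 20.4% over all genes.

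At the high concentrations 57 of 112 pairs were called, or 50.9%, the same share as over all genes, 50.9%. Of these 44 were higher and 13 lower, or 39.3% and 11.6%, beside 25.4% and 25.5% over all genes. At the low concentrations 12 of 112 pairs were called, or 10.7% beside 9.41%, 11 higher (9.82% beside 4.91%) and 1 lower (0.893% beside 4.5%), and 5 higher and 1 lower of these came from 8 µM WY14643, where 56.2% of all genes were called. No clock gene was called in the edgeR fit of both batches at 400 µM acetaminophen, 400 µM caffeine, 18 µM chloramphenicol, 16 µM diclofenac or 0.08 µM doxorubicin, where 1.38%, 0.118%, 0.0883%, 0.137% and 1.32% of all genes were. The same held at 12 µM indomethacin, 400 µM isoniazid, 0.6 µM ketoconazole, 160 µM ranitidine and 2.4 µM simvastatin, where 5.87%, 0.0196%, 1.62%, 0.0589% and 2.4% of all genes were called. It also held at the high concentration of doxorubicin, 2 µM, where 19.4% of all genes were called. DESeq2 called none there either, and of the 88 pairs of these 11 groups 3 had an unadjusted p under 0.05 in edgeR.

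**Figure D1:**
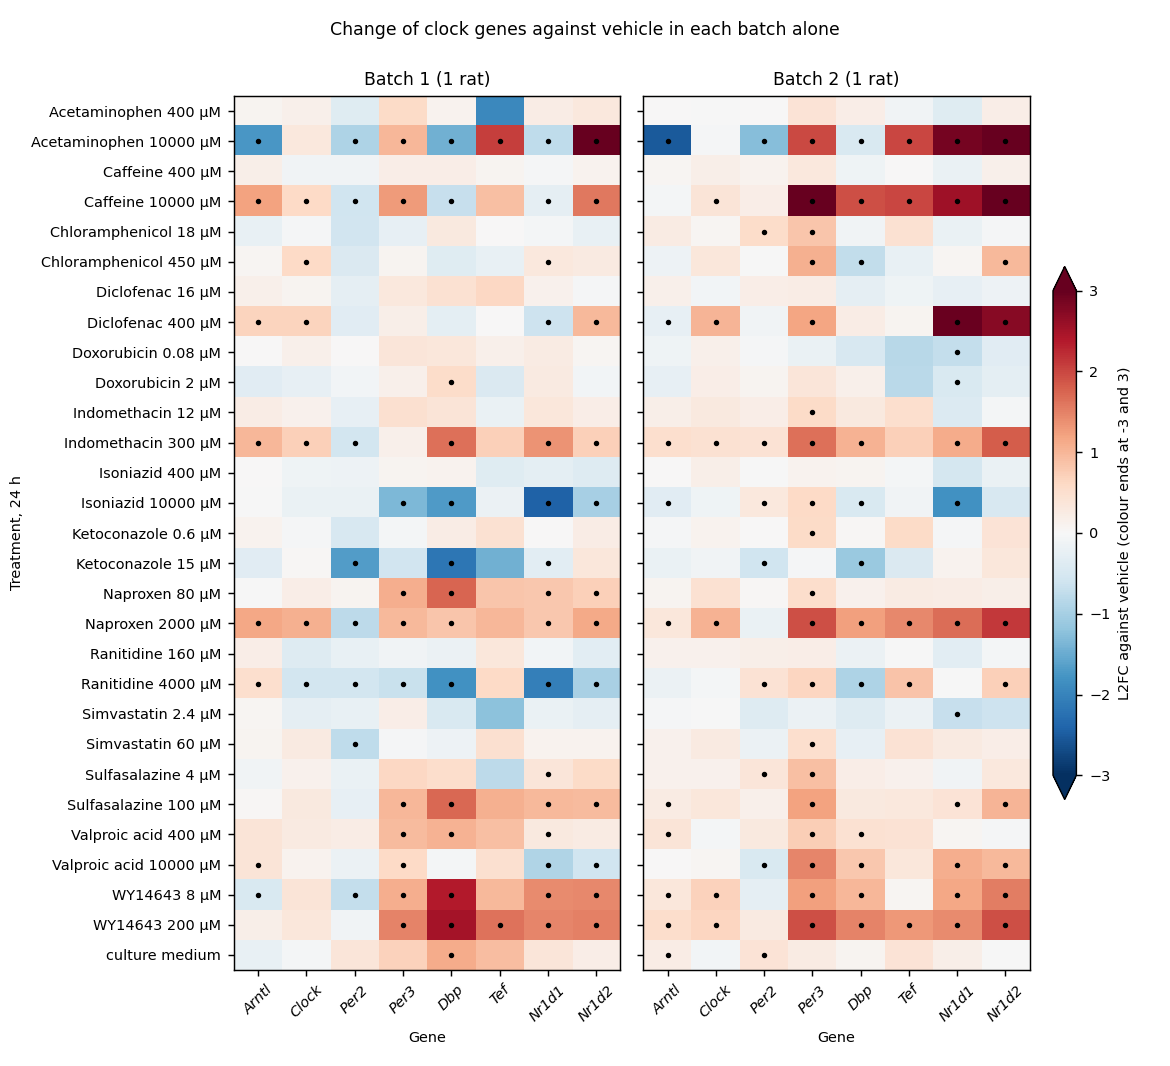
Colour gives L2FC against the vehicle wells of the same batch for 8 clock genes (columns) under 28 treatments and culture medium (rows), with batch 1 on the left and batch 2 on the right, and a dot marks an adjusted p under 0.05 in that batch alone. Rows of WY14643, naproxen and indomethacin at high concentration are mostly red in both panels, whereas Nr1d1 under 10000 µM acetaminophen, 10000 µM caffeine, 400 µM diclofenac and 10000 µM valproic acid is blue in batch 1 and red in batch 2.

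Among the activators, Clock was higher in 8 treatments and lower in 1, and 4 of the higher calls stood in each batch alone. The lower call, with 4000 µM ranitidine (adjusted p = 0.0445), did not stand in batch 2 alone (L2FC -0.06) or with wells added (adjusted p = 0.165), and against vehicle wells of the same plate in batch 2 L2FC was 0.15. With 2000 µM naproxen, a nonsteroidal anti-inflammatory drug, Clock read 44.9, 46.3 and 46.7 CPM in batch 1, against 21.3, 22.3 and 23.1 CPM in vehicle wells. In batch 2 it read 37.0, 39.7 and 55.2 CPM against 17.2 to 25.3 CPM, so that the naproxen wells lay above all vehicle wells of their batch. Its L2FC was 1.05 (SE 0.13, adjusted p = 7.22e-13), and 400 µM diclofenac followed with 0.81. Batch and treatment did not interact for Clock at the threshold in any of the 28 treatments.

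Arntl was higher in 5 treatments and lower in 1. The fall was the larger change, since with 10000 µM acetaminophen, an analgesic that injures the liver in overdose, it read 8.45, 9.87 and 11.3 CPM in batch 1 and 5.97, 7.22 and 9.74 CPM in batch 2. Every one of these wells lay below every vehicle well, of which the lowest was 39.8 CPM. The L2FC was -2.18 (SE 0.17, adjusted p = 1.25e-25). The rises were smaller, with L2FC of 0.76 for 2000 µM naproxen, 0.70 for 300 µM indomethacin, 0.63 for 10000 µM caffeine, 0.37 for 400 µM valproic acid and 0.35 for 200 µM WY14643, of which the first and the second were called in each batch alone.

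Per2 and Per3 encode inhibitors of the activator pair. Per3 had the most calls of the 8 genes, 13 higher and 0 lower in both edgeR and DESeq2, also 0 lower at an unadjusted p under 0.05, 9 of them in each batch alone, with a median L2FC of 0.57 over the 28 treatments. With the wells of a treatment and batch added 6 of its calls were left, and Nr1d2 then had more, 7. All 28 comparisons share the same vehicle wells, and the L2FC of Per3 was above 0 in all 14 low concentrations, from 0.094 to 1.21 with a median of 0.37, and 4 of these were called. It was 0.45 in culture medium, which was not called (adjusted p = 0.145). With 10000 µM caffeine, a phosphodiesterase inhibitor and adenosine receptor antagonist, Per3 read 21.1, 22.8 and 24.3 CPM in batch 1 against 9.68, 10.2 and 13.04 CPM in vehicle wells. In batch 2 it read 53.6, 58.9 and 61.8 CPM against 6.01 to 9.16 CPM. The groups did not overlap in either batch, and L2FC was 2.38 (SE 0.21, adjusted p = 8.20e-21). For Per2 no treatment was called higher in the edgeR fit of both batches and 5 were lower, DESeq2 gave the same counts, and 1 was higher at an unadjusted p under 0.05. In each batch alone 10000 µM acetaminophen and 15 µM ketoconazole were lower.

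With 15 µM ketoconazole, an antifungal azole, Per2 read 11.8, 13.9 and 15.9 CPM in batch 1 and 38.9, 44.6 and 46.0 CPM in batch 2. Both sets lay below the vehicle wells of their batch, and L2FC was -1.02 (SE 0.15, adjusted p = 5.00e-10). Cry1, the cryptochrome of the list, stood between 0 and 3.06 CPM in batch 1 and between 0.150 and 2.63 CPM in batch 2, with at most 22 counts in a well. In the edgeR fit without the filter it was called higher in 6 of 28 treatments, beside 8.01% of the pairs of all genes called higher there, and lower in 0, with 0 lower at an unadjusted p under 0.05. These were the high concentrations of acetaminophen, caffeine, diclofenac, isoniazid, ranitidine and valproic acid, with adjusted p from 0.000404 to 0.0103. No treatment was called for Cry1 in both batches when each was fitted alone, with 4 in batch 1 and 2 in batch 2. Its vehicle wells held 0 to 3 counts in batch 1, so the fitted changes depend on the prior count and are not given.

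Dbp, the PAR bZIP factor whose message swings widely in the liver over the day, was higher in 8 treatments, 5 of them in each batch alone, and lower in 4. With the wells of a treatment and batch added 2 of the 8 rises were left, those of WY14643, a PPARα agonist, which were also the largest. At 200 µM Dbp read 124, 144 and 155 CPM in batch 1 against 23.0, 32.3 and 38.4 CPM in vehicle wells. In batch 2 it read 53.5, 57.5 and 58.5 CPM against 19.1 to 24.7 CPM. All treated wells lay above all vehicle wells, and L2FC was 2.02 (SE 0.25, adjusted p = 7.25e-13). At 8 µM L2FC was 1.79 (SE 0.25, adjusted p = 1.71e-10), and between the concentrations it was 0.24, which did not pass the test.

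The 4 falls of Dbp held in each batch alone. With 15 µM ketoconazole it read 5.76, 6.50 and 7.27 CPM in batch 1 and 8.80, 9.13 and 11.5 CPM in batch 2, all below every vehicle well, with an L2FC of -1.58 (SE 0.29, adjusted p = 9.23e-07). L2FC was -1.33 for 4000 µM ranitidine, an H2 receptor antagonist, -0.95 for 10000 µM isoniazid, an antitubercular drug, and -0.86 for 10000 µM acetaminophen. With the wells of a treatment and batch added, ketoconazole alone of these kept its call. Tef, a relative of Dbp, was low, with 0 to 76 counts per well, and was higher in 5 treatments and lower in 0 in both edgeR and DESeq2, with 1 lower at an unadjusted p under 0.05. Its L2FC was 2.02 for 10000 µM acetaminophen, 1.62 for 10000 µM caffeine, 1.44 for 200 µM WY14643, 1.25 for 2000 µM naproxen and 0.73 for 4000 µM ranitidine, and the first and the third held in each batch alone. The ranitidine call was lost with wells added (adjusted p = 0.0868) and the other 4 were kept.

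**Figure D2:**
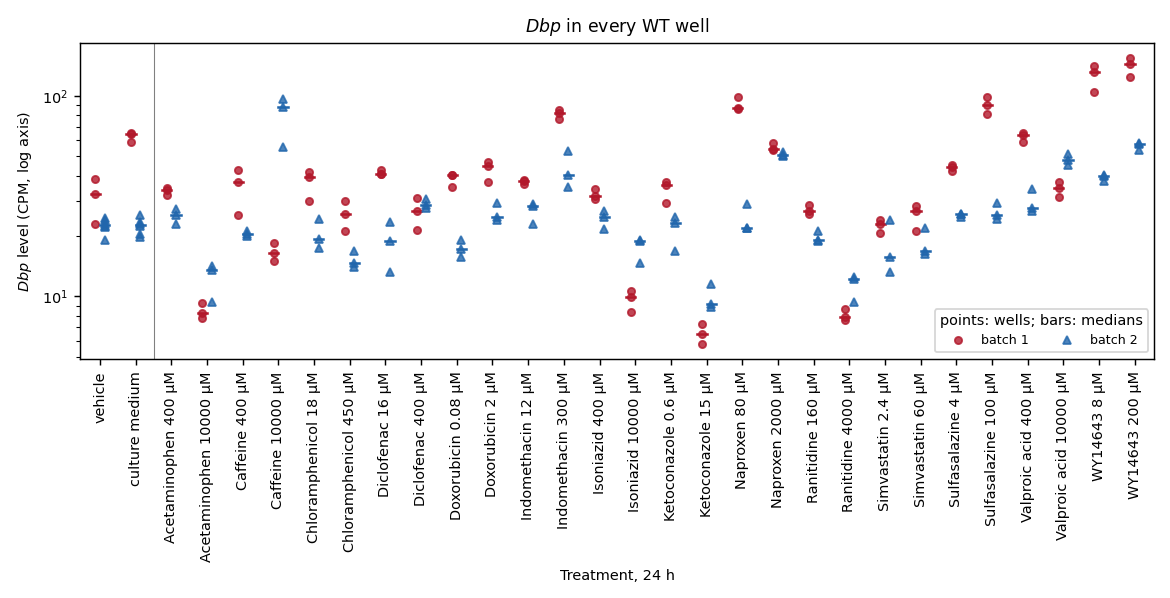
Dbp level in CPM on a log axis in every WT well, by treatment, with batch 1 as circles, batch 2 as triangles and bars at the medians. Both WY14643 groups stand above vehicle in both batches and 15 µM ketoconazole below it, and with 10000 µM caffeine the batches part, at 15.0 to 18.5 CPM in batch 1 and 55.6 to 96.3 CPM in batch 2.

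The REV-ERB genes were called in 19 of 56 pairs, or 33.9% beside 30.2% over all genes. Nr1d2 was higher in 9 treatments, 8 of them in each batch alone, and lower in 1. With 10000 µM acetaminophen it read 93.6, 143 and 256 CPM in batch 1 and 166, 259 and 272 CPM in batch 2, against 24.9 to 30.5 CPM and 9.50 to 13.5 CPM in vehicle wells. That was the largest L2FC of any of the 224 pairs, 4.09 (SE 0.24, adjusted p = 4.27e-37). In the same wells Arntl had its lowest levels, and a link between these changes was not tested. Caffeine at 10000 µM followed with 2.73 and diclofenac at 400 µM with 1.99. Nr1d1 was higher in 7 treatments and lower in 2, with 4 and 1 in each batch alone.

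With 200 µM WY14643 Nr1d1 read 336, 370 and 373 CPM in batch 1 and 96.8, 100.2 and 106 CPM in batch 2, more than every vehicle well of the same batch, and L2FC was 1.46 (SE 0.33, adjusted p = 5.96e-05). The fall came with 10000 µM isoniazid, where it read 29.6, 30.2 and 33.2 CPM in batch 1 and 10.5, 11.8 and 15.9 CPM in batch 2, for an L2FC of -2.10 (SE 0.38, adjusted p = 1.74e-06). Isoniazid left each well below all vehicle wells of its batch. With the wells of a treatment and batch added, neither result passed the test, with adjusted p of 0.144 and 0.0638. Of the 7 rises of Nr1d1 2 were then left, and of its 2 falls 0. The rises left were those of 10000 µM acetaminophen and 400 µM diclofenac, where the batches alone were called in opposite directions. Nr1d1 has 5 probes in the WT assay, and 1 of them held 68.2% of its counts while the probe shared with the ST assay held 1.00%.

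The clock genes differed between the rats in many treatments. The interaction of batch and treatment passed the test in 44 of the 224 pairs, or 19.6%, beside 2.44% of the pairs of all genes, and in 32 of the 44 L2FC was higher in batch 2. In 13 pairs, or 5.8%, the gene was called in each batch alone in opposite directions, beside 0.14% over all genes. Of these 13 pairs, 4 were of Nr1d1, 2 each of Nr1d2, Per2, Per3 and Arntl, and 1 of Dbp, and 12 were at high concentrations. Clock and Tef had no interaction at the threshold.

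Dbp had the most interactions, 11, and Nr1d1 and Per3 had 8 each, while Nr1d1 had the largest differences and the most pairs called in opposite directions. With 10000 µM acetaminophen Nr1d1 read 63.3, 72.3 and 79.7 CPM in batch 1, below all vehicle wells there, and 189, 214 and 299 CPM in batch 2, above all vehicle wells there. L2FC was -0.77 in batch 1 and 2.88 in batch 2, a difference of 3.65 (adjusted p = 1.58e-33 for the interaction, edgeR). This p-value rests on the spread between wells. In batch 1 the acetaminophen wells were on a plate without vehicle wells, so plate enters the difference as well. With 400 µM diclofenac it read 95.6, 111 and 128 CPM in batch 1 and 269, 321 and 482 CPM in batch 2, with L2FC of -0.62 and 2.96. With 10000 µM caffeine it read 113, 116 and 124 CPM and 193, 234 and 273 CPM, with L2FC of -0.28 and 2.55. In these 3 groups batch 2 lay above batch 1, whereas in vehicle batch 1 lay above batch 2, so the fitted L2FC over both batches, 1.91, 1.96 and 1.66, lay between those of the rats.

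Valproic acid at 10000 µM and ranitidine at 4000 µM brought the rats to like levels of Nr1d1. With valproic acid it read 97.4, 99.1 and 103 CPM in batch 1 and 94.7, 115 and 120 CPM in batch 2, a fall in the first (L2FC -0.91) and a rise in the second (L2FC 1.09). With ranitidine the medians were 36.4 CPM in both batches, a fall of L2FC -2.05 in batch 1 and a difference of -0.01 in batch 2, which did not pass the test. These were the 2 treatments of 28 in which the wells of the batches overlapped for Nr1d1, and in 23 treatments every well of batch 1 lay above every well of batch 2. Naproxen, WY14643 and indomethacin left batch 1 above batch 2.

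**Figure D3:**
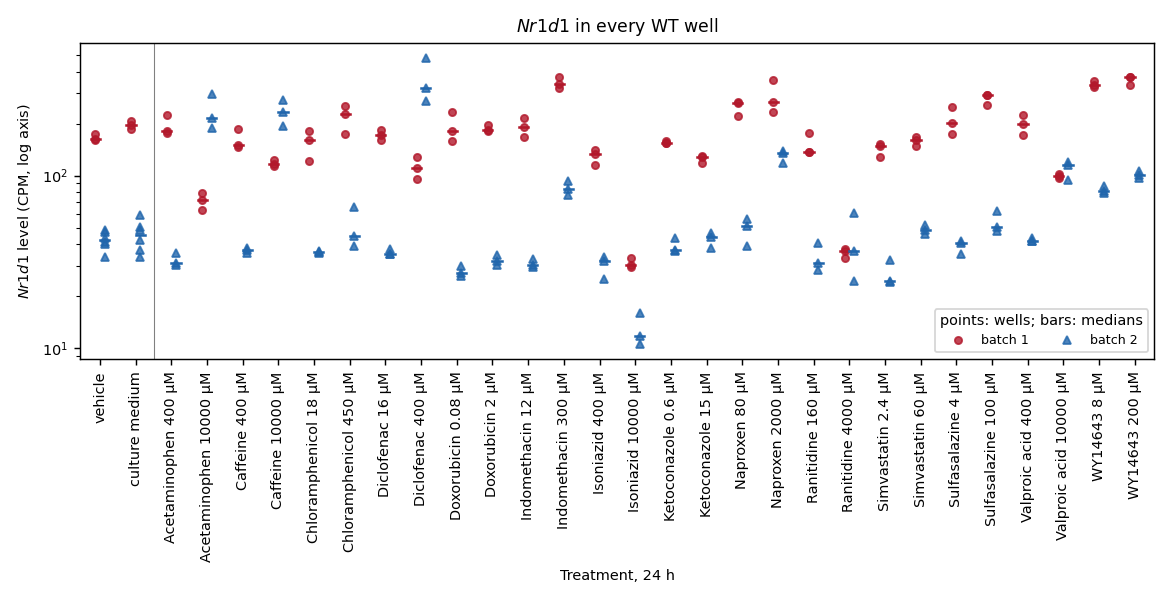
Nr1d1 level in CPM on a log axis in every WT well, by treatment, with batch 1 as circles, batch 2 as triangles and bars at the medians. Batch 1 stands above batch 2 in vehicle and in most treatments, the wells meet with 4000 µM ranitidine and 10000 µM valproic acid, and the order turns with 10000 µM acetaminophen, 10000 µM caffeine and 400 µM diclofenac.

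The same treatments moved other members differently in the 2 rats. With 10000 µM caffeine Dbp had an L2FC of -0.69 in batch 1, where it read 15.0 to 18.5 CPM, and of 1.94 in batch 2, where it read 55.6 to 96.3 CPM. Arntl rose in batch 1 alone with that treatment, with an L2FC of 1.21 against -0.06 in batch 2. With 4000 µM ranitidine Nr1d2, Per2 and Per3 each fell in batch 1, with L2FC of -0.96, -0.54 and -0.67, and each rose in batch 2, with L2FC of 0.72, 0.43 and 0.64. Where the directions were shared the sizes still differed, as for Nr1d2 with 10000 µM acetaminophen, with L2FC of 3.01 and 4.78.

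**Figure D4:**
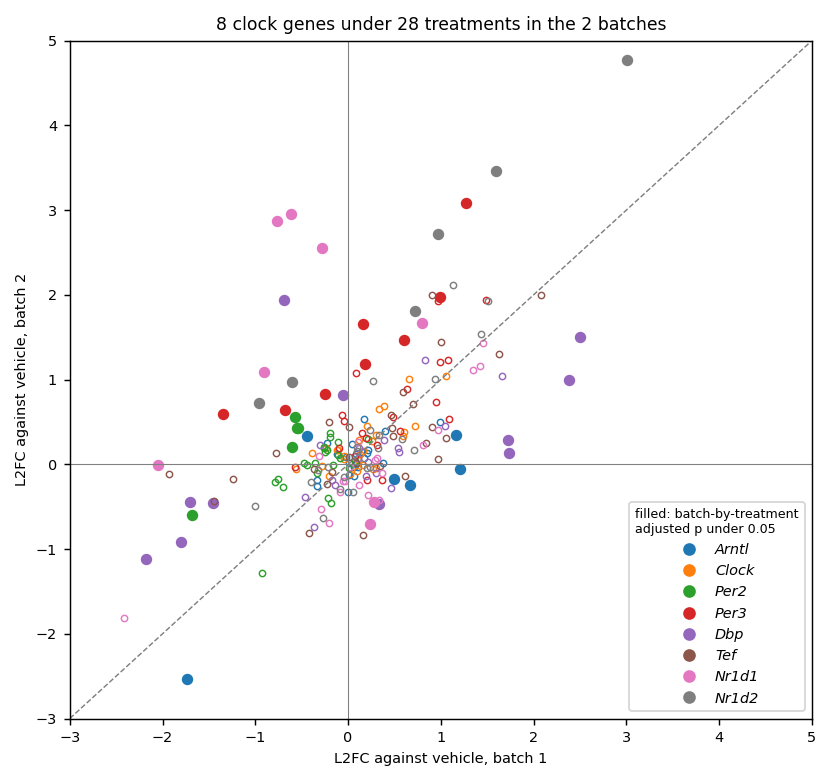
L2FC against vehicle in batch 1 (horizontal) and batch 2 (vertical) for each of the 224 pairs of 8 clock genes and 28 treatments, coloured by gene, with filled points where the interaction of batch and treatment had an adjusted p under 0.05 and the dashed line at equal values. The 44 filled points include 4 of Nr1d1 left of and above 0, at -0.91 to -0.28 in batch 1 and 1.09 to 2.96 in batch 2.

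The ST assay, run on the same lysates, reads 4 of these genes above the filter. Of the 69 called pairs 37 could be compared, and 32 were called there in the same direction while 5 did not pass the test. The parting of the rats was read there too, since Dbp with 10000 µM caffeine read 29.9 to 41.2 CPM of the ST total in batch 1, below vehicle wells at 69.1 to 87.6 CPM, and 110.5 to 198 CPM in batch 2, above vehicle wells at 38.6 to 49.5 CPM. Nr1d1, with 0 to 22 counts per vehicle well in that assay, read 30.4 to 52.1 CPM with 400 µM diclofenac in batch 2 against 0 to 7.11 CPM in vehicle wells. In batch 1 its diclofenac wells, at 5.32 to 19.1 CPM, overlapped vehicle wells at 6.55 to 18.5 CPM.

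In 4 treatments at least 5 of the 8 genes were called in the fit of both batches and in each batch alone. With 10000 µM acetaminophen 7 of 8 genes were called, beside 78.9% of all genes, so the number of calls was that of the treatment as a whole. Nr1d2, Nr1d1, Tef and Per3 were higher, beside 38.8% of all genes, and Arntl, Per2 and Dbp lower, beside 40.1%. All but Nr1d1 held in each batch alone, 6 of 8 genes beside 61.1% of all genes. Hnf4a, a transcription factor that marks hepatocytes, had an L2FC of -2.85 there, and the 5 hepatocyte markers summed to 17071 to 20382 CPM in batch 1 and 22892 to 29733 CPM in batch 2, below the vehicle wells of each batch, at 27992 to 31991 CPM and 31443 to 36601 CPM. The summed Kupffer cell markers read 19.2 to 28.3 CPM in batch 1, below its vehicle wells, and 13.6 to 32.4 CPM in batch 2, across them, and the part of these changes in the result was not tested.

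With 200 µM WY14643 7 of 8 genes were higher and none was lower in edgeR or DESeq2 or at an unadjusted p under 0.05 (0 genes), beside 26% of all genes higher, 25.4% lower and 51.4% in all. The median L2FC was 1.45. Dbp, Per3, Nr1d2, Nr1d1 and Tef were higher in each batch alone, 5 of 8 genes beside 15.1% of all genes. With 2000 µM naproxen 7 genes were higher, beside 27.6% of all genes, and Per2 was lower with an L2FC of -0.44, beside 26.2% lower and 53.8% in all. The 6 higher in each batch alone, beside 14.9% of all genes, were Nr1d2, Per3, Nr1d1, Clock, Dbp and Arntl, with L2FC from 0.76 to 1.67. With 300 µM indomethacin, like naproxen an inhibitor of cyclooxygenase, 6 genes were higher and 0 lower in both edgeR and DESeq2, also 0 lower at an unadjusted p under 0.05, beside 27.1% of all genes higher, 27.6% lower and 54.7% in all. Arntl, Clock, Dbp, Nr1d1 and Nr1d2 were higher in each batch alone, beside 16% of all genes. With the wells of a treatment and batch added, WY14643 kept 5 of its 7 calls (not Arntl and Nr1d1), naproxen 5 of 8 (not Dbp, Nr1d1 and Per2), indomethacin 3 of 6 (not Dbp, Nr1d1 and Per3) and acetaminophen 6 of 7 (not Dbp). Summed hepatocyte markers stood below the vehicle wells of the batch in all 3 treatments, at 16683 to 17288 CPM in batch 1 and 16526 to 17959 CPM in batch 2 with naproxen, at 18984 to 23054 CPM and 19499 to 20772 CPM with indomethacin, and at 22692 to 27146 CPM and 27542 to 27908 CPM with WY14643. Their part in the result was not tested. In batch 1 acetaminophen, indomethacin, WY14643, ketoconazole, sulfasalazine and chloramphenicol were on a plate without vehicle wells, so that plate and treatment cannot be told apart there, whereas each plate of batch 2 had its own.

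Between the concentrations of a chemical 40 of 112 pairs were called, or 35.7%, beside 40.8% over all genes, with 29 higher and 11 lower at the high concentration, beside 20.1% and 20.7%. Acetaminophen and caffeine gave 7 calls each, beside 76.3% and 61.5% of all genes, and indomethacin and naproxen 5 each, beside 43% and 47.4%. Nr1d2 with acetaminophen differed most, by an L2FC of 3.76, followed by Nr1d2 with caffeine at 2.54 and Tef with acetaminophen at 2.5. WY14643 differed in Per2 alone, by 0.56, of 8 genes, and 5.74% of all genes differed. In 10 of the 112 pairs, or 8.93% beside 0.175% over all genes, the batches alone were called in opposite directions, among them Dbp with naproxen, at -0.91 in batch 1 and 1.10 in batch 2. There the 80 µM wells of batch 1 read 86.0 to 98.4 CPM, above all 2000 µM wells at 53.6 to 57.9 CPM.

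Culture medium against vehicle, which would hold the effect of DMSO, gave 1 call in 8 genes, or 12.5%, beside 12.6% of all genes. Per2 was higher in medium, with an L2FC of 0.38 (SE 0.12, adjusted p = 0.0265), and this call did not stand in batch 1 alone, with wells added (adjusted p = 0.691), without the filter, without the batch term or without any one replicate. Dbp parted here too. In batch 1 it read 58.8, 64.6 and 65.2 CPM in medium, above all vehicle wells, with an L2FC of 1.12, and in batch 2 it read 19.8 to 25.4 CPM, overlapping them, with an L2FC of 0.08. The difference passed the interaction test, with an adjusted p of 0.00641. The vehicle wells of batch 2 on its 2 plates did not differ at the threshold in any of the 8 genes, and the largest difference was that of Tef, with an L2FC of 1.12 (adjusted p = 0.279).

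Of 16 further clock genes 11 passed the filter, and 106 of their 308 pairs with the treatments were called, 45 higher and 61 lower, or 34.4% beside 30.2% over all genes. Npas2, a relative of Clock that also pairs with ARNTL, was lower in 13 treatments, and its L2FC over the 28 ranged from -5.07 to 0.12. With 10000 µM acetaminophen, where 5 of the 11 genes were higher and 6 lower beside 38.8% and 40.1% of all genes, it had the lowest of these, and Bhlhe40, a repressor at E-boxes, had an L2FC of -2.72. Rora, a nuclear receptor that activates Arntl, was higher in 12 treatments, among them 300 µM indomethacin (1.62) and 200 µM WY14643 (1.47), and lower in 1. Hlf, the PAR bZIP relative of Dbp and Tef, was higher in 9 and lower in 5, with 2.26 for 200 µM WY14643. With 2000 µM naproxen 3 of the 11 were higher and 5 lower, beside 27.6% and 26.2% of all genes, led by Bhlhe40 at -0.99, Rora at 0.99 and Npas2 at -0.91. With 300 µM indomethacin 2 were higher and 5 lower, beside 27.1% and 27.6%, and after Rora came Npas2 at -0.82 and Csnk1e, a kinase of PER proteins, at -0.68. With 200 µM WY14643 2 were higher and 4 lower, beside 26% and 25.4%, with Npas2 at -0.79. In culture medium Bhlhe40, at 0.87, was the 1 gene called. The interaction of batch and treatment passed in 22 of these 308 pairs, or 7.14% beside 2.44% over all genes.

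The other lists were read against the same shares of all genes, 38.8% higher and 40.1% lower with 10000 µM acetaminophen, 27.6% and 26.2% with 2000 µM naproxen, 27.1% and 27.6% with 300 µM indomethacin, 26% and 25.4% with 200 µM WY14643, and 7.51% and 5.1% in culture medium. With lists of 4 to 6 genes, nothing particular to a list is read from its counts. Of 6 clock output genes of the liver that were tested, 4 were higher and 2 lower with acetaminophen, led by Gys2, the liver glycogen synthase, at -4.57, Rgs16 at 2.88 and Nampt, an enzyme of NAD synthesis, at 1.38. With WY14643 3 were higher and 2 lower, led by Gys2 at 2.55, Noct at -1.92 and Rgs16 at 1.88. With naproxen 3 were higher and 1 lower, led by Rgs16 at 3.48, Noct at -2.57 and Nampt at 1.05, and with indomethacin 4 were higher and 2 lower, led by Rgs16 at 2.15, Noct at -1.86 and Gys2 at 1.25. In culture medium 5 of 6 were higher, led by Rgs16 at 1.60, Lpin1 at 0.92 and Wee1 at 0.88, and 2 of these 5 held in each batch alone.

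Of 5 glucocorticoid receptor targets, 2 were higher and 2 lower with acetaminophen, led by Zbtb16 at -3.05, Tat at -2.11 and Fkbp5 at 1.71. With indomethacin 3 were higher and 1 lower, led by Tat at 1.79, Sgk1 at -1.61 and Fkbp5 at 0.58. With naproxen 2 were higher and 2 lower, led by Sgk1 at -1.44, Tat at 1.32 and Klf9 at 0.67. With WY14643 2 were higher and 2 lower, led by Fkbp5 at -0.92, Klf9 at 0.74 and Sgk1 at -0.60, and in culture medium Sgk1, at -0.59, was the 1 gene called. Of 4 targets of cAMP signalling, 3 were higher with naproxen, namely Pck1, the rate-limiting enzyme of gluconeogenesis, at 4.26, Nr4a2 at 2.16 and Crem at 0.24. With WY14643 3 were higher, Pck1 at 4.18, Nr4a2 at 2.5 and Crem at 0.39, and with indomethacin 2 were higher, Pck1 at 3.34 and Nr4a2 at 1.10. With acetaminophen Nr4a2, at 4.48, and Crem, at 1.14, were higher and Sik1, at -0.58, was lower.

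Over the 30 groups of a batch (28 treatments, vehicle and medium), which share their plates and their vehicle wells, the log2 levels of Per3 and Nr1d2 ran together, with Pearson's r of 0.65 in batch 1 and 0.82 in batch 2. Nr1d1 and Per3 had r of 0.62 and 0.77, and Dbp and Per3 0.63 and 0.70. These are the pairs of tested members with the highest lower r of the batches, and other pairs did not run together in this way. Nr1d1 and Nr1d2 had r of 0.38 and 0.92, and Per2 and Per3 0.18 and -0.11. Arntl had r of 0.07 and -0.30 with Nr1d1 and of -0.29 and -0.52 with Nr1d2. Outside the clock lists, the genes whose pattern was most like that of Dbp were Fbp1 (0.77 and 0.79), Sar1b (0.78 and 0.77) and Eci1 (0.75 and 0.80). Those most like Arntl were Cep131 (0.87 and 0.85), LOC100912262 (0.83 and 0.91) and Stx17 (0.83 and 0.90).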

How the data were processed

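Counts per probe and well of the TempO-Seq ST and WT assays were deposited by the authors without normalization. Per the paper's methods and the submitters' processing notes, reads were aligned to rn6 with STAR 2.5.3a and counted per probe. Wells were grouped by the chemical, concentration and batch in their labels, and no 2 wells held identical counts. Probes of one gene were added (20946 WT genes), and the 10191 WT genes averaging 10 counts or more over 186 wells entered edgeR 4.0.16 (R 4.3.3, TMM, quasi-likelihood), in a model of treatment and batch. CPM was computed on all counts of a well. The count of probe reads carries no molecular identifier, and 3 wells per batch come from 1 rat.

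The members and lists were chosen with earlier results of these data known. All members were described in every treatment. Treatments described by name had at least 5 members called in the fit of both batches and in each batch alone in the same direction. From the other lists up to 3 called genes with the largest absolute L2FC were named in the treatments described by name and in culture medium (1 gene that the rule would name is not reported here), and beside Dbp and Arntl the 3 genes outside the clock lists with the highest lower r of the batches over log2(CPM + 0.1). The counts by gene over the treatments name Npas2, Rora and Hlf after their values were seen. On simulated data for 400 µM caffeine, 96.5% of 200 genes changed 2-fold out of 10191 were recovered, with 7 false calls. The simulation gave all genes the same spread and held no interaction of batch and treatment. It therefore gives no rate of recovery or of false calls for the clock genes. The alternatives were DESeq2 1.42.0, RLE scaling, all genes unfiltered, calls limited to an absolute L2FC of 1 or more, each batch alone, wells added per treatment and batch, no batch term, the ST assay, vehicle wells of the same plate, only the wells of a treatment and vehicle, and each replicate left out.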

Additional observations from a re-analysis of the deposited data

Results flagged for a closer look

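In 45 pairs of a clock gene and a group, culture medium included, the change against vehicle differed between the 2 rats by the interaction test of edgeR (adjusted p under 0.05 over all genes). The values are L2FC in batch 2 minus L2FC in batch 1, and with 1 rat per batch the source of a difference was not tested.

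For Nr1d1 the difference was 3.65 with 10000 µM acetaminophen, 3.60 with 400 µM diclofenac, 2.83 with 10000 µM caffeine, 2.03 with 4000 µM ranitidine, 1.98 with 10000 µM valproic acid, 0.87 with 2000 µM naproxen, -0.72 with 2 µM doxorubicin and -0.95 with 0.08 µM doxorubicin. For Nr1d2 it was 1.87 with 10000 µM caffeine, 1.78 with 400 µM diclofenac, 1.77 with 10000 µM acetaminophen, 1.67 with 4000 µM ranitidine, 1.56 with 10000 µM valproic acid and 1.10 with 300 µM indomethacin. All 6 values of Nr1d2 were above 0.

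For Dbp it was 2.63 with 10000 µM caffeine, 1.27 with 10000 µM isoniazid, 1.04 with 15 µM ketoconazole, 0.99 with 10000 µM acetaminophen, 0.87 with 4000 µM ranitidine and 0.85 with 10000 µM valproic acid. It was below 0 for Dbp with 80 µM naproxen (-1.58), 100 µM sulfasalazine (-1.40), 8 µM WY14643 (-1.35), culture medium (-1.01), 200 µM WY14643 (-0.96) and 0.08 µM doxorubicin (-0.81). In 80 µM naproxen, 100 µM sulfasalazine and culture medium the Dbp wells of batch 1 lay above their vehicle wells.

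For Per3 it was 1.95 with 10000 µM isoniazid, 1.81 with 10000 µM caffeine, 1.5 with 300 µM indomethacin, 1.29 with 4000 µM ranitidine, 1.11 with 18 µM chloramphenicol, 1.02 with 400 µM diclofenac, 0.99 with 10000 µM acetaminophen and 0.85 with 10000 µM valproic acid. For Per2 it was 1.16 with 18 µM chloramphenicol, 1.08 with 15 µM ketoconazole, 0.99 with 300 µM indomethacin, 0.96 with 4000 µM ranitidine and 0.81 with 10000 µM caffeine. For Arntl it was -1.26 with 10000 µM caffeine, -0.88 with 400 µM diclofenac, -0.82 with 2000 µM naproxen, -0.78 with 10000 µM acetaminophen, -0.68 with 4000 µM ranitidine and 0.82 with 8 µM WY14643.

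No vehicle or culture medium well of batch 2 stood apart from the others of its group by Dixon's test in the 18 groups of clock genes tested.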

How the results depend on the processing

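DESeq2 and RLE size factors kept the direction and the side of the threshold of all 69 called pairs, and 24 pairs kept both under every alternative fitted to them, the ST assay covering 37 pairs and the larger L2FC not counted here, while 38 missed the threshold under some and 7 reversed under some. Of the called pairs, 36 missed it with wells added per treatment and batch, 10 in the fit with no replicate block (no batch term), 10 in batch 2 alone and 13 in batch 1 alone. Against vehicle wells of the same plate in batch 2, 12 missed it and 3 reversed. Replicate numbers follow accession order and pair no wells, so batch is the only block. Pairs called higher, 55, became 29 in the ST assay, where 4 genes are tested, 35 with an absolute L2FC of at least 1 and 29 with wells added. Pairs called lower, 14, became 6, 6 and 4 in these, 28 in batch 1 alone and 9 without the block. Pairs higher at the high concentration, 29, became 17, 14 and 13, and 19 without the block. Pairs lower there, 11, became 6, 7 and 5, 29 in batch 1 alone and 17 in batch 2 alone. The 43 pairs called in each batch alone, 1 of them (Nr1d1 with 100 µM sulfasalazine) not called in both together, became 19 in ST and 20 with the larger L2FC. Calls of other clock genes, 106, became 48, 30 and 61. The 1 call in medium became 0 in ST, with the larger L2FC, without the filter, without the block, with wells added and without any one replicate, and 2 in batch 2 alone. Leaving out each replicate gave 48 to 51 higher and 10 to 12 lower pairs, 21 to 23 and 10 to 11 between concentrations, 34 to 41 in each batch and 88 to 95 for other clock genes.

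In batch 1 alone L2FC reversed for Nr1d1 with 10000 µM acetaminophen (-0.77), 10000 µM caffeine (-0.28) and 400 µM diclofenac (-0.62) and for Dbp with 10000 µM caffeine (-0.69). Arntl with 10000 µM caffeine reversed in batch 2 alone (-0.057) and against vehicle wells of the same plate in batch 2 (-0.089). Against these wells Clock (0.15) and Nr1d1 (0.15) reversed with 4000 µM ranitidine. The cause was not tested. Cry1 held 0 to 22 counts per well and Tef 0 to 76, and the part of depth in their results was not tested.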
